A study of Homo sapiens and Mus musculus with 36 samples.

Results

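The genes described here are the histone methyltransferases and demethylases, the enzymes that add methyl groups to histone tails and take them off. They were chosen by gene symbol alone, as the symbols that start with KMT, KDM, SETD, PRMT, EZH, SUV39H, SUV420H, NSD, EHMT, WHSC1, ASH1L or SMYD followed by the number or letter of the family member, in capitals in the human files and in title case in the mouse files. The rule found 65 of 26457 symbols in the HuH-7 guide files, of which 61 are protein-coding genes and 4 are noncoding RNAs named after a neighbour (EHMT1-IT1, KDM4A-AS1, KMT2E-AS1 and PRMT5-AS1). It found 59 of 15899 symbols in the HuH-7 drug files, 56 of them coding, and 59 of 22673 in the mouse files. DOT1L, the methyltransferase that the study removed or inhibited, is outside the rule and is given only as a check.

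The study measured RNA by sequencing in 36 libraries of 4 tumour cell lines. Human liver cancer is represented by HuH-7, mouse liver cancer by Hepa1-6 and Hep53.4 (all 3 labelled as hepatocellular carcinoma), and LLC is labelled as a mouse lung carcinoma. In each line, cells given guide sgRNA#1 or sgRNA#2, labelled DOT1L_KO or Dot1l_KO, were compared with WT cells given the control guide sgNeg2, with 2 libraries per guide. The guides in HuH-7 were sequenced with and without IFN; no source used here names the interferon, its dose or its duration. HuH-7 cells labelled WT, with no guide named, received for 7 days EPZ-5676, an inhibitor of DOT1L, or were given DMSO, with 3 libraries each. Nothing in the labels says whether libraries of a group came from separate cultures or whether edited cells were clones or pools, so the p-values measure the spread between these libraries, which may be technical. These are bulk samples, in which fewer cells of a type and less RNA per cell cannot be told apart.

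Histone methylation is written and erased residue by residue. KMT2A to KMT2D and the SETD1 enzymes place H3K4 methylation at promoters and enhancers. EZH1 and EZH2 place H3K27 methylation as the catalytic subunits of Polycomb repressive complex 2. SUV39H, EHMT and SETDB enzymes place H3K9 methylation in silent chromatin, and SETD2, the NSD proteins and ASH1L place H3K36 methylation. The list called H3K4 writers below also holds KMT2E and SETD7, and activity was not measured. The KDM enzymes remove these marks, through a flavin-dependent reaction in KDM1A and KDM1B and through a JmjC domain in the others, and PRMT enzymes methylate arginine. Several of them, among them EZH2, SETDB1 and KDM1A, are known for restraining interferon responses of tumour cells. DOT1L is the enzyme of H3K79 methylation, a mark along transcribed genes.

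Library totals ran from 19580588 to 22649969 counts in HuH-7 guide cells without IFN, and lay between 42637155 and 61227426 counts in all other sets. The enzymes together took 0.481 to 0.483% of counts with EPZ-5676 and 0.497 to 0.500% with DMSO. In Hepa1-6 they took 0.343 to 0.358% in knockout and 0.371 to 0.372% in sgNeg2 libraries, and in Hep53.4 0.381 to 0.384% in knockout and 0.401 to 0.405% in sgNeg2 libraries. In LLC the order was the other way round, with 0.413 to 0.429% in knockout and 0.385 to 0.403% in sgNeg2 libraries. The targeted gene was lower in each knockout group. DOT1L had 35.6, 32.1, 40.4 and 34.8 CPM (counts scaled to library size by TMM) in HuH-7 knockout libraries without IFN, against 75.4 and 73.1 CPM in sgNeg2 libraries. With IFN it had 42.5 and 46.5 CPM with sgRNA#1, 66.8 and 66.7 CPM with sgRNA#2, and 108.5 and 109.1 CPM with sgNeg2. Dot1l had 14.3 to 16.6 CPM in Hepa1-6 knockout libraries, against 45.7 and 41.4 CPM in sgNeg2. It had 11.5 to 16.4 CPM in Hep53.4, against 23.0 and 23.7 CPM, and 28.5 to 32.0 CPM in LLC, against 57.7 and 64.5 CPM. Hepatocyte markers were present in HuH-7 (10 of 10 genes above 1 CPM) and Hepa1-6 (8 of 10), and in Hep53.4 6 of 10 passed that level and Ttr was at 0. In Hep53.4 sgNeg2 libraries Alb (1.315 and 1.387 CPM) and Afp (1.774 and 1.405 CPM) barely passed it. The others that passed were Apob (699.2 and 710.4 CPM), Trf, Hnf4a and Foxa2. The lung epithelial marker Napsa had 40.26 and 41.58 CPM in Hep53.4 sgNeg2 libraries, against 1.008 and 1.022 CPM in LLC sgNeg2 libraries. In LLC 1 of 6 lung epithelial markers passed 1 CPM and Nkx2-1 was at 0, so the lung label is not borne out by these genes.

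Of the 65 human symbols, 59 passed the filter on low counts. KDM4E, PRMT6 and PRMT8 had 0 counts in all 12 HuH-7 guide libraries, which allows levels of up to 0.0490 to 0.153 CPM per library (3 counts, counting error only). SMYD1 reached at most 2 counts in a library, PRMT5-AS1 at most 8, and KDM5D also stayed below the filter. PRMT5 and PRMT5-AS1, KDM4A and KDM4A-AS1, and EHMT1 and EHMT1-IT1 are pairs of a gene and an RNA named after it, and no source used here says that counting used strand, so reads of such pairs may be shared.

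The bases before the RefSeq start of 5 genes are shown because the HuH-7 results below turn on these genes. KDM4B fell in knockout without IFN and with EPZ-5676, WHSC1 (also named NSD2) and KDM1A fell in knockout with IFN and with EPZ-5676, and PRMT1 and PRMT5 rose with IFN in sgNeg2 cells. Each line gives 250 bases, 5′ to 3′ on the strand of the gene, from RefSeq promoter windows of GRCh38.p14, with the GC box GGGCGG on either strand in capitals. The windows are chr19:4968863-4969112 (+) for KDM4B, chr4:1871143-1871392 (+) for WHSC1, chr1:23019218-23019467 (+) for KDM1A, chr19:49677021-49677270 (+) for PRMT1 and chr14:22929377-22929626 (-) for PRMT5.
KDM4B: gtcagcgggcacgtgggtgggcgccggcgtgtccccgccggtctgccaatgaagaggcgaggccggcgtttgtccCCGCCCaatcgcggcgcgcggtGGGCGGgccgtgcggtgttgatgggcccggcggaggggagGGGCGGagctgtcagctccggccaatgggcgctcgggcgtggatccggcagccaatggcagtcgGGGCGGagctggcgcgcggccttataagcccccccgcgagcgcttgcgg
WHSC1: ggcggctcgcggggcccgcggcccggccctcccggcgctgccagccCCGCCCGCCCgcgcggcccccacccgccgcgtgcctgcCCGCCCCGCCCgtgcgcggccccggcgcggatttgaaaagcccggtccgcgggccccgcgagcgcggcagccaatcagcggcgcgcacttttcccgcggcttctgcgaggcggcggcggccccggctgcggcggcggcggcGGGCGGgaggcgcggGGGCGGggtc
KDM1A: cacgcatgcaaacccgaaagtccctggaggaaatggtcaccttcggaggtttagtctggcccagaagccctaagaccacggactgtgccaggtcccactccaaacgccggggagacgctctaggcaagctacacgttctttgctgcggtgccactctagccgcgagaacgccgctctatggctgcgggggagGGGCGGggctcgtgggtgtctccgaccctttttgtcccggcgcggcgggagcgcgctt
PRMT1: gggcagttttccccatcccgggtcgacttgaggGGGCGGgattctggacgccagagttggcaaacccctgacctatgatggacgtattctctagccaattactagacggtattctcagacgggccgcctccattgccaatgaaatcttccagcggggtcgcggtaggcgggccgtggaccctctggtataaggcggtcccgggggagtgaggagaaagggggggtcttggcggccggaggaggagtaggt
PRMT5: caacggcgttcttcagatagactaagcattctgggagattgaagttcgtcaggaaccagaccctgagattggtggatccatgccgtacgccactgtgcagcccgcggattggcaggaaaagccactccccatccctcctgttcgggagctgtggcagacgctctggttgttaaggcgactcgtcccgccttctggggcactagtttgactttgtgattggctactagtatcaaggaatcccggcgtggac
KDM4B held 4 GC boxes, WHSC1 6, KDM1A 1, PRMT1 1 and PRMT5 0. Of the 61 coding symbols 58 matched a window (KDM4E, SETD1B and WHSC1L1 did not). The GC box was in 43 of the 58 windows (74.1%), against 42.6% of all 35116 windows, and the median window of these enzymes held 24 CG dinucleotides, against 11 over all windows. The letters of the interferon-stimulated response element, GAAA followed after any 2 bases by GAAA, were in 0 of 58 windows on either strand, against 3.02% of all windows. Those of the gamma-activated site, TTCNNNGAA, were also in 0 of 58, against 6.57%. The E2F letters TTTCCCGC were in 2 of 58 windows, those of KDM1B and WHSC1, against 1.39%. These are matches of letters in 250 bases only.

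Loss of DOT1L in HuH-7 cells without IFN changed few of these enzymes. EHMT2 and KDM4B fell and none rose, so 2 of 59 enzymes were called at an adjusted p below 0.05, against 11.3% of all genes tested (6.95% higher, 4.38% lower). At an unadjusted p below 0.05, 4 were higher and 12 lower in edgeR, and DESeq2 called 8, each lower. KDM4B, a JmjC demethylase of H3K9, had 40.3, 39.6, 41.8 and 38.6 CPM in knockout libraries, against 53.0 and 55.1 CPM in sgNeg2 libraries. The groups did not overlap, which was a condition for naming this enzyme. The log2 change was -0.43 ± 0.09 (SE; edgeR adjusted p = 0.00952). The call was lost without sgNeg2 replicate 1 (-0.46) or replicate 2 (-0.45), when the remaining control library stands alone. EHMT2, an H3K9 methyltransferase also known as G9a, had 0.861, 0.834, 1.14 and 0.558 CPM in knockout libraries, against 6.37 and 8.39 CPM in sgNeg2 libraries (log2 -3.12 ± 0.29, edgeR adjusted p = 1.82e-05). All 4 knockout libraries were below both controls. The DMSO libraries, WT cells scaled in a separate set, had 0.743 to 1.60 CPM. This gene lies at chr6:31879759-31897687 (GRCh38, GENCODE 29) in the major histocompatibility region, of which the human assembly also holds alternate copies. Whether reads were split between such copies was not tested, and the counts of EHMT2 are uncertain. The 66 other listed genes within 500 kb had a median of 0.0748 CPM in sgNeg2 libraries, against 14.9 CPM for genes of the rest of the chromosome outside this region, and of the 33 that passed the filter 0 rose and 3 fell.

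The panel of 18 enzymes followed in each comparison had 1 other gene near the threshold. KDM5B, an H3K4 demethylase, averaged 83.8 ± 4.38 CPM in knockout and 102 ± 3.87 CPM in sgNeg2 libraries (SD, n = 4 and 2; log2 -0.28 ± 0.09, edgeR adjusted p = 0.0549). EZH2 had a log2 difference of 0.22 ± 0.08 (edgeR adjusted p = 0.115) and KMT2A one of 0.20 ± 0.07 (edgeR adjusted p = 0.0878), both higher in each knockout library than in each control. The 14 others of the panel that were not called lay between -0.34 for SUV39H1 and 0.08 for SETD8. The 17 demethylases had a median log2 of -0.14 and the 39 coding methyltransferases one of -0.01, beside 0.00 over all genes. Over the 56 coding enzymes with an annotated transcript, the log2 change had a Spearman correlation of -0.612 with transcript GC content, against -0.277 over 15767 genes, where the points share the same libraries. With a GC trend removed per library, an alternative added after the data were seen, 19 enzymes fell and 0 rose in edgeR. The share of all genes called in that fit was not counted. The hepatocyte marker list summed to 13383 to 15504 CPM in knockout and 16469 to 16519 CPM in sgNeg2 libraries, and its part in these results was not tested.

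Under IFN, 5 enzymes fell on DOT1L loss and none rose, so 5 of 59 were called, against 12.4% of all genes (5.27% lower, 7.11% higher). At an unadjusted p below 0.05, edgeR had 16 lower and 0 higher, and DESeq2 called 6, each lower. WHSC1, the H3K36 dimethyltransferase of NSD2, had 288, 300, 287 and 290 CPM in IFN knockout libraries, against 346 and 348 CPM in IFN sgNeg2 libraries (log2 -0.25 ± 0.05, edgeR adjusted p = 0.00652). KDM1A, the flavin-dependent H3K4 demethylase LSD1, had 252, 254, 244 and 238 CPM in IFN knockout libraries, against 296 and 291 CPM in IFN sgNeg2 libraries (log2 -0.25 ± 0.06, edgeR adjusted p = 0.0116). In both genes each knockout library was below each control. EZH1, the less active of the Polycomb methyltransferases, had 14.9, 14.3, 16.3 and 14.7 CPM in IFN knockout libraries, against 20.9 and 17.7 CPM in IFN sgNeg2 libraries (log2 -0.36 ± 0.09, edgeR adjusted p = 0.0235). KDM4C, an H3K9 demethylase, averaged 32.6 ± 1.56 CPM in IFN knockout and 40.7 ± 2.99 CPM in IFN sgNeg2 libraries (log2 -0.32 ± 0.09, edgeR adjusted p = 0.0359). SMYD3, a SET and MYND domain methyltransferase, averaged 13.3 ± 1.20 CPM in IFN knockout and 17.3 ± 0.245 CPM in IFN sgNeg2 libraries (SD, n = 4 and 2; log2 -0.38 ± 0.11, edgeR adjusted p = 0.0372). These calls rest on few control libraries. Without IFN sgNeg2 replicate 1 all 5 were lost (WHSC1 -0.25, KDM1A -0.23, EZH1 -0.24, KDM4C -0.24 and SMYD3 -0.40), and edgeR then had 5 lower at an unadjusted p below 0.05 and DESeq2 called 1. Without IFN sgNeg2 replicate 2, WHSC1 (-0.25), KDM1A (-0.26), KDM4C (-0.39) and SMYD3 (-0.37) were lost. Without IFN sgRNA#2 replicate 1 or replicate 2, KDM4C (-0.29 and -0.30) and SMYD3 (-0.35 in both) were lost, and without IFN sgRNA#1 replicate 2, EZH1 (-0.33). A fit of the 6 IFN libraries alone called 0 in edgeR, with 6 lower at an unadjusted p below 0.05, and 0 in DESeq2.

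The difference between both knockout effects was tested as an interaction, in which EHMT2 was called, 1 of 59 enzymes against 0.505% of all genes. Its change was 3.36 ± 0.41 higher on the log2 scale with IFN than without (edgeR adjusted p = 0.00197). It had 2.08, 3.32, 3.91 and 2.56 CPM in IFN knockout libraries, against 2.08 and 2.92 CPM in IFN sgNeg2 libraries. The IFN knockout libraries overlapped their controls there (log2 0.25 ± 0.27). Without IFN, sgNeg2 libraries had 6.37 and 8.39 CPM and knockout libraries 0.558 to 1.14 CPM. The DMSO libraries, WT cells scaled in a separate set, had 0.743, 1.60 and 0.936 CPM, near the knockout libraries without IFN. What sets the level of EHMT2 in these controls was not tested. EZH2 had 95.2, 89.2, 83.1 and 82.3 CPM in IFN knockout libraries, against 99.8 and 107 CPM in IFN sgNeg2 libraries, so that it was lower in these and higher in the knockout libraries without IFN. Its interaction was -0.46 ± 0.11 (edgeR adjusted p = 0.102) and was called by DESeq2 (-0.40, adjusted p = 0.0396), without IFN sgRNA#1 replicate 1 (-0.50), with guides as separate groups (-0.46) and with the GC trend removed (-0.34). The comparisons with and without IFN use separate libraries but share 1 fit. These libraries also differ in depth and in their share of histone genes and small nuclear RNA. IFN and library kind therefore cannot be told apart in the interaction.

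**Figure D1:**
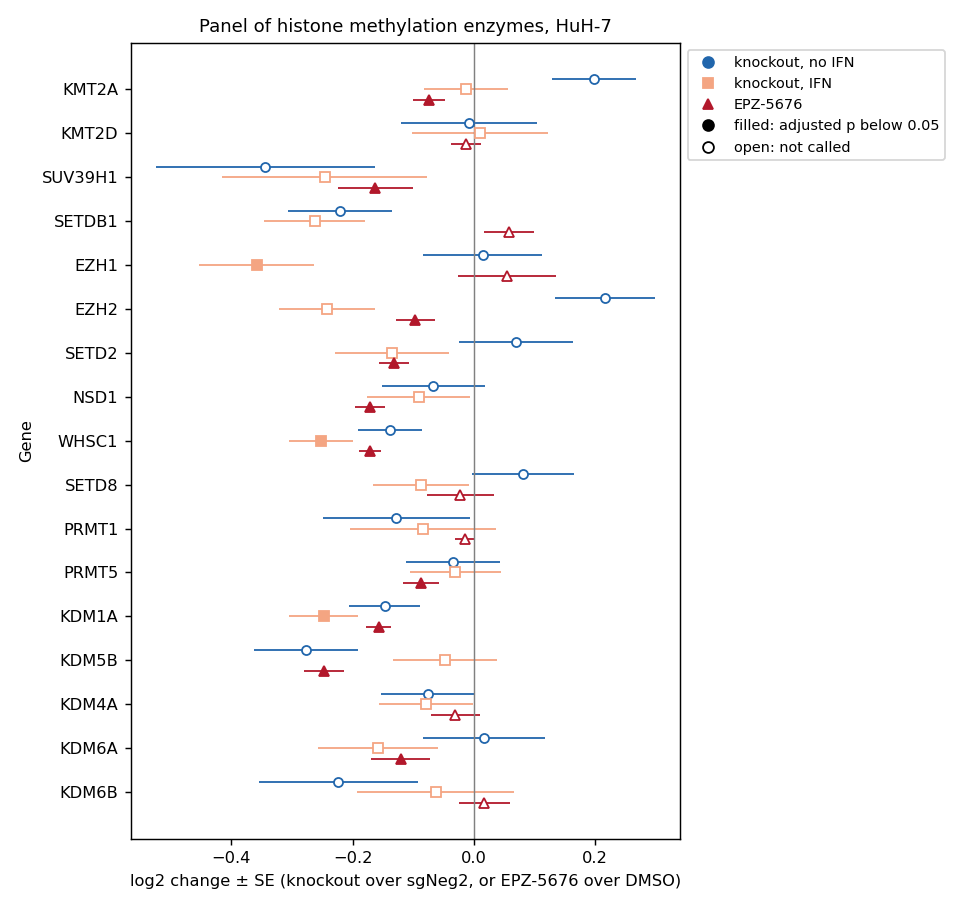
Log2 change (x axis) of panel enzymes (rows) in HuH-7 cells, as DOT1L knockout over sgNeg2 without IFN (circles), the same with IFN (squares) and EPZ-5676 over DMSO (triangles), with bars for the standard error and filled symbols for an adjusted p below 0.05. EZH2 lies at 0.22 without IFN and -0.24 with IFN, and most EPZ-5676 changes lie between -0.25 and 0.06 with narrow bars; EHMT2 is left out.

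EPZ-5676 lowered many of these enzymes by small amounts. In all 27 of 58 enzymes fell and 0 rose, against 18.6% lower, 15.1% higher and 33.7% in either direction over all genes. At an unadjusted p below 0.05 edgeR had 27 lower and 1 higher, and DESeq2 called 25, each lower. The falls were between 0.07 and 0.32 on the log2 scale, and none reached a log2 change of 1. The median over the 58 enzymes was -0.06, beside 0.01 over all genes. Demethylases fell in 11 of 17 cases and coding methyltransferases in 16 of 39. The 10 hepatocyte markers summed to 15515 to 15583 CPM with EPZ-5676 and 17440 to 17554 CPM with DMSO. TF averaged 3492 CPM with EPZ-5676 and 4366 CPM with DMSO, while FGB went up, with 168 CPM against 144 CPM. AFP and TTR overlapped between the groups. The part of these markers in the falls was not tested.

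The demethylases held the largest falls. KDM4B had 50.1, 52.6 and 48.8 CPM with EPZ-5676, against 60.6, 64.6 and 64.4 CPM with DMSO (log2 -0.32 ± 0.04, edgeR adjusted p = 1.36e-10). KDM2B, a demethylase of H3K36 that also recruits a variant Polycomb complex to CpG islands, had 41.7, 44.0 and 43.4 CPM with EPZ-5676, against 51.2, 51.3 and 52.0 CPM with DMSO (log2 -0.26 ± 0.04, edgeR adjusted p = 5.12e-07). KDM5B had 65.2, 64.9 and 63.0 CPM with EPZ-5676, against 77.4, 75.7 and 76.2 CPM with DMSO (log2 -0.25 ± 0.03, edgeR adjusted p = 1.90e-09). In these 3 genes every treated library was below every DMSO library, which was a condition for naming KDM4B and KDM2B. KDM3A, an H3K9 demethylase induced by hypoxia, had 141, 143 and 142 CPM with EPZ-5676, against 166, 164 and 160 CPM with DMSO (log2 -0.20 ± 0.03, edgeR adjusted p = 3.58e-10). KDM5A averaged 89.9 ± 0.608 CPM with EPZ-5676 and 103 ± 2.94 CPM with DMSO (SD, n = 3 each; log2 -0.20 ± 0.03), and KDM4C averaged 39.9 ± 2.86 CPM with EPZ-5676 and 46.1 ± 2.26 CPM with DMSO (log2 -0.21 ± 0.05). KDM1A had 220, 223 and 225 CPM with EPZ-5676, against 252, 248 and 244 CPM with DMSO (log2 -0.16 ± 0.02, edgeR adjusted p = 4.44e-09). All 5 H3K4 erasers that passed the filter fell (median -0.16), and so did 5 of 8 H3K9 and H3K36 erasers (median -0.16). Of the H3K27 erasers, KDM6A fell (log2 -0.12 ± 0.05, edgeR adjusted p = 0.0495), and KDM6B had a log2 difference of 0.02 ± 0.04. The call of KDM6A was lost with the replicate number as a block (edgeR adjusted p = 0.0605).

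Among the writers, those of H3K36 fell in 4 of 5 cases with a median of -0.17. WHSC1 had 314, 304 and 310 CPM with EPZ-5676, against 347, 345 and 353 CPM with DMSO (log2 -0.17 ± 0.02, edgeR adjusted p = 2.96e-12). WHSC1L1, the related NSD3, had 99.5, 97.6 and 103 CPM with EPZ-5676, against 111, 115 and 113 CPM with DMSO (log2 -0.18 ± 0.03). NSD1 averaged 92.1 ± 1.35 CPM with EPZ-5676 and 104 ± 2.25 CPM with DMSO (log2 -0.17 ± 0.03), and SETD2, which trimethylates H3K36, 147 ± 1.58 CPM with EPZ-5676 and 161 ± 3.44 CPM with DMSO (SD, n = 3 each; log2 -0.13 ± 0.03). All 3 NSD genes thus fell by a similar amount. H3K4 writers fell in 4 of 8 cases, KMT2A among them (-0.07 ± 0.03, edgeR adjusted p = 0.0216), while KMT2D had a log2 difference of -0.01 ± 0.02. EZH2 (-0.10 ± 0.03), PRMT5 (-0.09 ± 0.03) and SUV39H1 (-0.16 ± 0.06) were also called. No call was made for PRMT1 (-0.01), SETD8 (-0.02), KDM4A (-0.03), EZH1 (0.06), SETDB1 (0.06) or EHMT2 (0.98 ± 0.64). EHMT2 was at 0.815, 2.19 and 3.43 CPM with EPZ-5676, against 0.743, 1.60 and 0.936 CPM with DMSO, and was called without EPZ-5676 replicate 1 (1.37) and with the replicate number as a block (0.86).

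The smallest of these calls depended on single libraries. Without DMSO replicate 1, the calls of SUV39H1 (-0.15), KDM6A (-0.13), EZH2 (-0.08) and PRMT5 (-0.08) were lost. Without DMSO replicate 2, those of SUV39H1 (-0.16) and KDM6A (-0.09) were lost, and without DMSO replicate 3 those of SUV39H1 (-0.18) and KMT2A (-0.05). Without EPZ-5676 replicate 1, SUV39H1 (-0.10), KDM6A (-0.13), EZH2 (-0.08) and PRMT5 (-0.08) were lost. Without EPZ-5676 replicate 2, KDM6A (-0.12), EZH2 (-0.08), PRMT5 (-0.08) and KMT2A (-0.07) were lost, and without replicate 3, SUV39H1 (-0.15), KDM6A (-0.11) and KMT2A (-0.07). The other EPZ-5676 falls named above kept their call in each of these 6 fits. Across the 56 coding enzymes the log2 change had a Spearman correlation of -0.573 with the span of the gene on the genome, against -0.154 over 14509 genes, a description in which all points come from the same 6 libraries. The part of gene span in the falls was not tested.

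**Figure D2:**
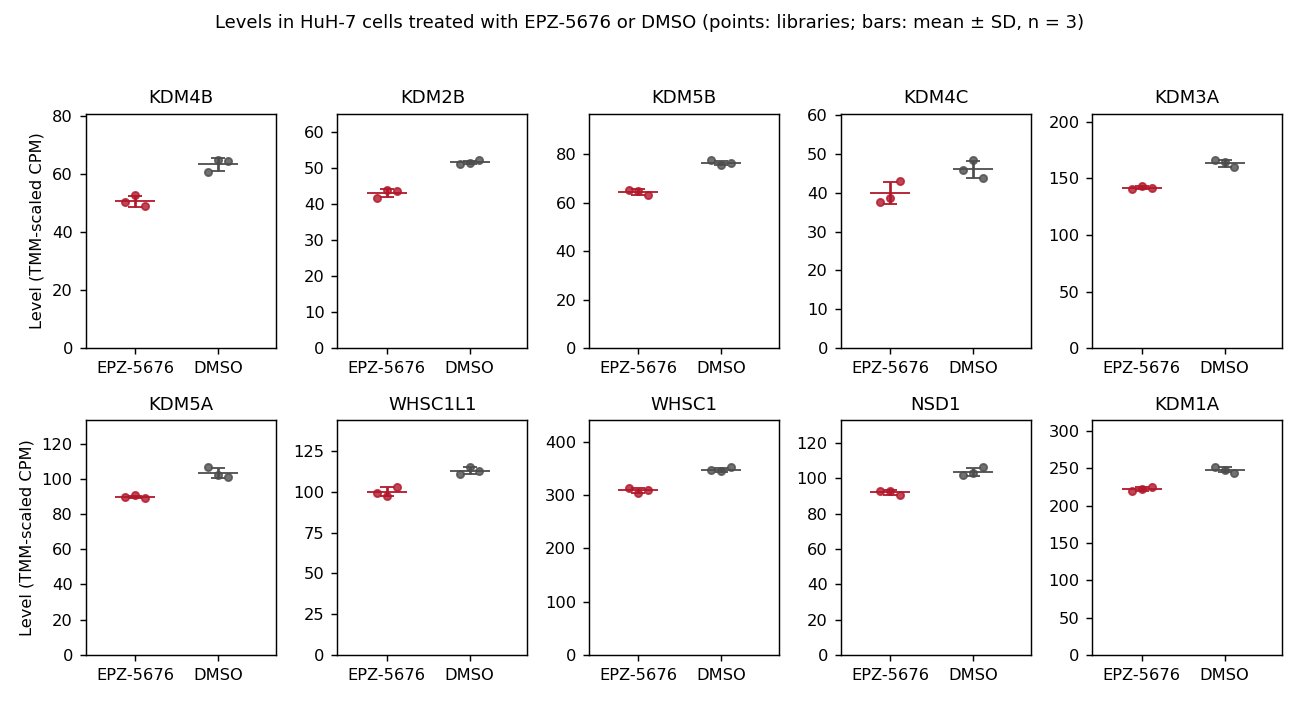
Level in TMM-scaled CPM (y axis, from 0) of 10 enzymes in HuH-7 cells treated with EPZ-5676 (left) or DMSO (right), with points for libraries and bars for the mean ± SD (n = 3). In each panel the treated libraries lie below the DMSO libraries, by 0.32 on the log2 scale for KDM4B and 0.16 for KDM1A.

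Few enzymes were called lower both by the inhibitor and by editing. KDM4B was the 1 of the 27 EPZ-5676 falls (3.70%) that was among the 2 falls of knockout without IFN (50.0%), and KDM1A, KDM4C and WHSC1 were 3 of the 27 (11.1%) that were among the 5 falls of knockout with IFN (60.0%). Over all genes, 4.38% were called lower without IFN and 5.27% with IFN, so the share without IFN is near that background. No enzyme was called higher in any of these comparisons, so none could be called in opposite directions. These comparisons share no library.

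Most of these enzymes differed between sgNeg2 cells with and without IFN, about as often as other genes. In all 42 of 59 were called, 21 higher and 21 lower (2 of the falls are the noncoding EHMT1-IT1 and KMT2E-AS1), against 67.8% of all genes (33% higher, 34.7% lower). The IFN and no-IFN libraries also differ in make-up and depth, so IFN and library kind cannot be told apart in this comparison. Histone genes took 0.0329 to 0.0330% of counts in IFN sgNeg2 libraries and 0.963 to 0.969% in sgNeg2 libraries without IFN, and small nuclear RNA took 0.0106% with IFN and 2.99 to 3.42% without. The DMSO libraries had 0.0335 to 0.0344% histone and 0.0155 to 0.0160% small nuclear RNA. The part of this difference in the IFN results was not tested. Over the 56 coding enzymes the log2 change had Spearman correlations of 0.348 with transcript GC content and -0.453 with gene span. Over 15767 genes they were 0.286 and -0.159. All points come from the same libraries, and the part of GC content or span was not tested. The change against the DMSO libraries, another control without IFN that differs in vehicle and carries no named guide, is given beside the values of the enzymes below and was not computed for their partner genes. The hepatocyte marker list summed to 9599 to 9710 CPM in IFN sgNeg2 libraries and 16469 to 16519 CPM in sgNeg2 libraries without IFN. Most of that gap was APOB, with 1422 and 1436 CPM with IFN and 9206 and 9288 CPM without. ALB, AFP, TF and FOXA2 were higher with IFN, and APOA1, TTR, SERPINA1, FGB and HNF4A were lower. The leukocyte list summed to 157 to 159.8 CPM with IFN and 49.9 to 53.0 CPM without, and the part of either list in these results was not tested.

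Arginine methyltransferases rose together, 5 of 6 with a median log2 of 0.80. PRMT1, the main asymmetric arginine dimethyltransferase, had 905 and 904 CPM in IFN sgNeg2 libraries, against 242 and 239 CPM in sgNeg2 libraries without IFN (log2 1.91 ± 0.15, edgeR adjusted p = 1.08e-07), and a log2 change of 1.00 against DMSO. PRMT5, the main symmetric one, had 166 and 173 CPM in IFN sgNeg2 libraries, against 71.7 and 69.8 CPM without IFN (log2 1.26 ± 0.09, edgeR adjusted p = 5.98e-08), and 0.99 against DMSO. PRMT7 (0.80) was at 0.70 against DMSO, and PRMT3 (0.79) at -0.01. All 4 PRMT5 partners fixed as a list rose, RIOK1 by 1.52 ± 0.12, CLNS1A by 1.01 ± 0.09 and COPRS by 0.51 ± 0.16 on the log2 scale.

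H3K9 writers rose in 3 of 6 cases (EHMT1, SETDB1 and SUV39H1) and fell in 2 (EHMT2 and SETDB2), and of the H3K27 writers EZH2 rose and EZH1 was not called. EZH2 had 99.8 and 107 CPM in IFN sgNeg2 libraries, against 50.9 and 50.7 CPM without IFN (log2 1.03 ± 0.09, edgeR adjusted p = 6.56e-07), and 0.33 against DMSO. SUV39H1, which trimethylates H3K9 in constitutive heterochromatin, averaged 42.5 ± 1.11 CPM in IFN sgNeg2 libraries and 20.6 ± 0.714 CPM without IFN (log2 1.04 ± 0.20), and 0.65 against DMSO. SETDB1, the H3K9 methyltransferase that acts with TRIM28 on endogenous retroviruses, rose by 0.43 ± 0.10 (0.32 against DMSO), and SETD8, the H4K20 monomethyltransferase of the cell cycle, by 0.96 ± 0.10 (0.46 against DMSO). KDM1A rose by 0.75 ± 0.07 (0.17 against DMSO) and SMYD5 by 1.11 ± 0.16 (0.28 against DMSO). Of the subunits these enzymes work with, 8 of 12 COMPASS subunits rose and 0 fell, WDR5 by 1.30 ± 0.09 and MEN1 by 0.84 ± 0.16. Of 11 H3K9 partners 7 rose, TRIM28 by 1.45 ± 0.18, and 4 fell, and of 9 Polycomb subunits 4 rose, EED by 0.76 ± 0.10, and 3 fell.

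H3K36 writers fell in 4 of 5 cases with a median log2 of -0.61, and H3K4 writers fell in 4 of 8 cases and rose in 2, KMT2B (0.61 ± 0.17) and SETD1A (0.68 ± 0.15). KMT2C, an H3K4 methyltransferase of enhancers, had 56.5 and 54.9 CPM in IFN sgNeg2 libraries, against 238 and 242 CPM without IFN (log2 -2.11 ± 0.10, edgeR adjusted p = 1.70e-09), and -0.58 against DMSO. ASH1L had 49.6 and 49.2 CPM in IFN sgNeg2 libraries, against 139 and 147 CPM without IFN (log2 -1.54 ± 0.13, edgeR adjusted p = 2.99e-07), and -0.51 against DMSO. KDM7A, a JmjC demethylase of H3K9 and H3K27, had 13.1 and 12.5 CPM in IFN sgNeg2 libraries, against 34.2 and 35.1 CPM without IFN (log2 -1.44 ± 0.15, edgeR adjusted p = 2.57e-06), and -1.19 against DMSO. In each of these genes the IFN libraries lay below the others without overlap, which was a condition for naming them. KMT2A fell by 1.06 ± 0.08, KDM5A by 1.09 ± 0.09, SETDB2 by 1.13 ± 0.19, SETD2 by 0.83 ± 0.11, KDM5B by 0.75 ± 0.10, NSD1 by 0.61 ± 0.10 and KDM6A by 0.53 ± 0.12 on the log2 scale, and against DMSO they were at -0.38, -0.44, -0.83, -0.32, -0.41, -0.23 and -0.12 in the same order. KMT2D fell by 0.88 ± 0.13 but was at 0.05 against DMSO, and EHMT2 fell by 1.56 ± 0.31 but was at 1.13 against DMSO. KDM4A (-0.07), KDM6B (-0.06), EZH1 (0.01) and WHSC1 (0.05) were not called against untreated cells and were at 0.22, 0.67, 0.41 and -0.07 against DMSO. With the DMSO libraries 49 of 58 enzymes were called, of which 37 were also among the 42.

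**Figure D3:**
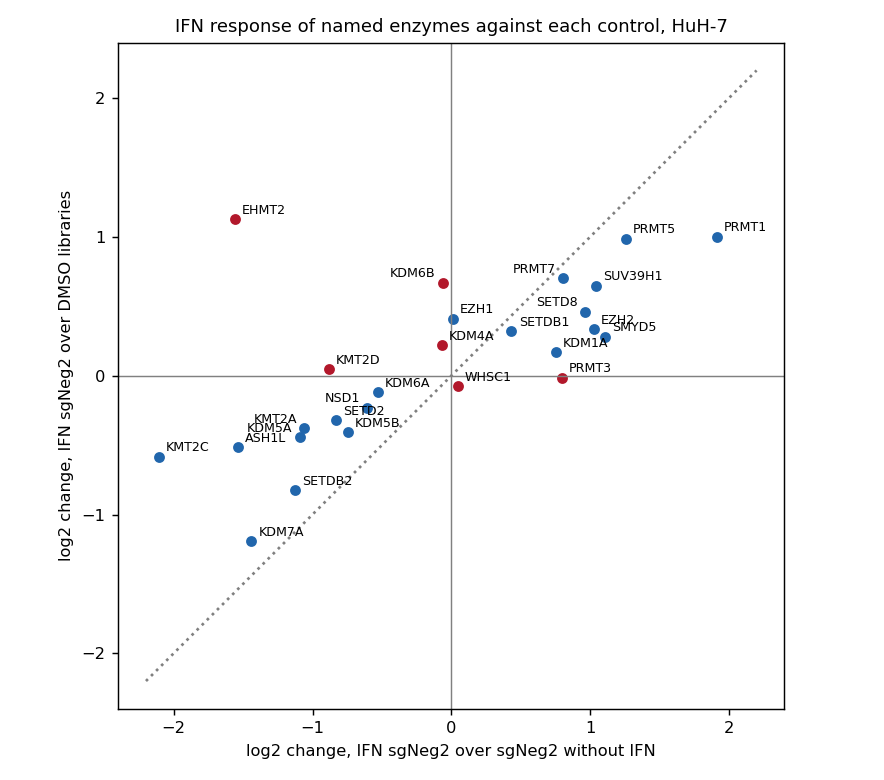
Log2 change of named enzymes in IFN sgNeg2 cells over sgNeg2 cells without IFN (x axis) and over DMSO libraries (y axis), with equality as a dotted line and opposite signs in red. PRMT1 lies at 1.91 and 1.00, KDM7A at -1.44 and -1.19, and KMT2C at -2.11 and -0.58.

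In Hepa1-6 cells loss of Dot1l lowered many of these enzymes. In all 28 of 56 fell and 3 rose, so 31 were called, against 32.8% of all genes (18.3% lower, 14.5% higher), and the median log2 was -0.15, beside 0.01 over all genes. Every one of the 8 genes listed as H3K4 writers fell, Kmt2e included, with a median of -0.31. Kmt2a, also known as Mll1, had 60.3, 60.8, 59.0 and 56.7 CPM in knockout libraries, against 90.3 and 87.5 CPM in sgNeg2 libraries (log2 -0.58 ± 0.05, edgeR adjusted p = 4.02e-09). Kmt2c, an enhancer H3K4 methyltransferase, had 19.9, 21.8, 20.4 and 18.5 CPM in knockout libraries, against 27.8 and 31.5 CPM in sgNeg2 libraries (log2 -0.55 ± 0.08, edgeR adjusted p = 2.78e-05). In neither gene did the groups overlap, which for Kmt2c was a condition for naming it. Setd1b (-0.37 ± 0.08), Kmt2b (-0.33 ± 0.06) and Kmt2d (-0.19 ± 0.04) also fell.

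All 5 H3K36 writers fell as well, with a median of -0.23. Ash1l had 41.6, 41.1, 41.4 and 38.7 CPM in Hepa1-6 knockout libraries, against 53.5 and 54.5 CPM in sgNeg2 libraries (log2 -0.40 ± 0.06, edgeR adjusted p = 8.05e-06). Setd2 averaged 38.4 ± 1.88 CPM in knockout and 46.5 ± 0.273 CPM in sgNeg2 libraries (log2 -0.26 ± 0.06), Whsc1 74.8 ± 4.55 CPM in knockout and 88.2 ± 3.34 CPM in sgNeg2 libraries (log2 -0.23 ± 0.05), and Nsd1 77.4 ± 4.07 CPM in knockout and 86.4 ± 3.12 CPM in sgNeg2 libraries (SD, n = 4 and 2; log2 -0.15 ± 0.05). Each knockout library was below each control in these 4 genes, for Ash1l as a condition of being named. Smyd4 (-0.41 ± 0.08), Kdm2b (-0.31 ± 0.08), Ehmt1 (-0.31 ± 0.07), Ezh1 (-0.23 ± 0.06), Setdb1 (-0.19 ± 0.07), Kdm4a (-0.15 ± 0.05), Kdm6b (-0.14 ± 0.05) and Ehmt2 (-0.09 ± 0.04) were also called lower. The 3 rises were Suv420h1, an H4K20 methyltransferase (20.6 ± 1.02 CPM in knockout and 16.1 ± 0.151 CPM in sgNeg2 libraries, log2 0.37 ± 0.09), Prmt1 (0.18 ± 0.05) and Smyd1. Smyd1, known from muscle and named here after its values were seen, had 1.10, 0.373, 0.442 and 0.531 CPM in knockout libraries, against 0.0359 and 0.0212 CPM in sgNeg2 libraries (log2 4.29 ± 0.88, edgeR adjusted p = 0.000600). Kdm6a (-0.20), Kdm5b (-0.09), Suv39h1 (-0.07), Ezh2 (-0.06), Prmt5 (-0.01), Setd8 (0.09) and Kdm1a (0.09) were not called. Of the Prmt5 partners, 3 of 4 rose, Wdr77 by 0.32 ± 0.06, Riok1 by 0.31 ± 0.09 and Coprs by 0.39 ± 0.13.

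The Hepa1-6 count fell to 19 without sgNeg2 replicate 2. Without that library the calls of Nsd1 (-0.11), Kdm6b (-0.14), Setdb1 (-0.15), Ezh1 (-0.19), Kdm2b (-0.22) and Whsc1 (-0.19) were lost. Without sgNeg2 replicate 1 those of Ehmt2 (-0.05), Ehmt1 (-0.27), Kdm4a (-0.13), Kdm6b (-0.15), Nsd1 (-0.19), Setdb1 (-0.24) and Prmt1 (0.15) were lost. Leaving out sgRNA#1 replicate 1 ended the calls of Ehmt2 (-0.10) and Nsd1 (-0.12), and leaving out sgRNA#1 replicate 2 those of Ehmt2 (-0.08), Kdm6b (-0.12) and Setdb1 (-0.19). Leaving out sgRNA#2 replicate 1 ended the call of Setdb1 (-0.15), and leaving out sgRNA#2 replicate 2 those of Setdb1 (-0.21), Ehmt2 (-0.09) and Kdm6b (-0.12). Kmt2a, Kmt2c, Kmt2b, Kmt2d, Setd1b, Ash1l, Setd2, Smyd4, Suv420h1 and Smyd1 were called in all 6 of these fits. The hepatocyte marker list, 8 of 10 genes above 1 CPM, summed to 20176 to 20891 CPM in knockout and 29222 to 29325 CPM in sgNeg2 libraries, and its part in these falls was not tested.

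In Hep53.4 cells the changes went both ways. In all 18 of 55 enzymes fell and 8 rose, so 26 were called, against 39.2% of all genes (19.7% lower, 19.4% higher), and the median was -0.08, beside 0.00 over all genes. H3K36 writers fell in 4 of 5 cases and SMYD genes in 3 of 4. Whsc1l1 had 107, 108, 112 and 103 CPM in knockout libraries, against 124 and 130 CPM in sgNeg2 libraries (log2 -0.24 ± 0.04, edgeR adjusted p = 4.48e-06). Kdm1b, a flavin-dependent H3K4 demethylase, had 8.51 to 8.88 CPM in the 4 knockout libraries and averaged 11.2 ± 0.272 CPM in sgNeg2 libraries (log2 -0.37 ± 0.10, edgeR adjusted p = 0.00279). Smyd5 averaged 64.0 ± 1.84 CPM in knockout and 76.4 ± 3.34 CPM in sgNeg2 libraries (log2 -0.26 ± 0.04). None of these groups overlapped, which was a condition for naming these enzymes. Suv420h1, which had risen in Hepa1-6, fell by 0.23 ± 0.06. Ezh2 averaged 155 ± 3.20 CPM in knockout and 170.3 ± 1.29 CPM in sgNeg2 libraries (log2 -0.14 ± 0.03, edgeR adjusted p = 0.000618), and 5 of 9 Polycomb subunits fell with it, Suz12 among them. Smyd4 (-0.26 ± 0.10), Smyd2 (-0.25 ± 0.08), Prmt3 (-0.23 ± 0.06), Prmt6 (-0.23 ± 0.09), Setd2 (-0.20 ± 0.05), Whsc1 (-0.16 ± 0.04) and Kdm4a (-0.09 ± 0.04) were also called lower.

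Demethylases were among the rises of Hep53.4, 2 of 3 H3K27 erasers included. Kdm7a had 58.0, 60.4, 62.7 and 62.8 CPM in knockout libraries, against 46.8 and 44.9 CPM in sgNeg2 libraries (log2 0.41 ± 0.05, edgeR adjusted p = 5.11e-08). Kdm6b, the inducible H3K27 demethylase, had 81.2, 74.0, 69.2 and 65.0 CPM in knockout libraries, against 59.2 and 61.9 CPM in sgNeg2 libraries (log2 0.26 ± 0.06, edgeR adjusted p = 0.00326). Each knockout library was above each control, for Kdm7a as a condition of being named, with sgRNA#1 libraries the highest for Kdm6b. Suv420h2 (0.37 ± 0.08), Ehmt2 (0.20 ± 0.03), Kdm5c (0.17 ± 0.03), Kmt2b (0.16 ± 0.04), Kmt2d (0.16 ± 0.05) and Prmt7 (0.08 ± 0.03) also rose. Nsd1 (-0.14), Setd8 (-0.09), Prmt1 (-0.06), Setdb1 (-0.05), Kdm6a (-0.04), Suv39h1 (-0.03), Kdm5b (-0.03), Kdm1a (0.02), Kmt2a (0.02), Prmt5 (0.04) and Ezh1 (0.06) were not called. Without sgNeg2 replicate 1 the count was 13, and the calls of Kdm4a (-0.12), Prmt6 (-0.23), Smyd4 (-0.24), Prmt7 (0.10), Kdm6b (0.23), Kmt2b (0.13), Kmt2d (0.10), Prmt3 (-0.19), Setd2 (-0.18), Smyd2 (-0.26) and Whsc1 (-0.12) were lost. Without sgNeg2 replicate 2 those of Kdm4a (-0.06), Prmt6 (-0.23), Smyd4 (-0.29), Prmt7 (0.06) and Smyd2 (-0.23) were lost. Leaving out sgRNA#1 replicate 1 ended the call of Smyd4 (-0.20), sgRNA#1 replicate 2 those of Kdm4a (-0.09), Prmt6 (-0.18) and Smyd2 (-0.20), sgRNA#2 replicate 1 those of Kdm4a (-0.09) and Prmt7 (0.08), and sgRNA#2 replicate 2 those of Kdm4a (-0.08), Smyd4 (-0.23) and Prmt7 (0.08).

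In LLC cells the changes went both ways. In all 12 of 58 rose and 5 fell, so 17 were called, against 33.5% of all genes (16% higher, 17.5% lower), and the median was 0.00, beside 0.01 over all genes. Arginine methyltransferases rose in 4 of 8 cases and fell in 0. Prmt8, a membrane-anchored enzyme known from brain, had 6.86, 6.16, 6.65 and 6.04 CPM in knockout libraries, against 3.73 and 4.51 CPM in sgNeg2 libraries (log2 0.62 ± 0.12, edgeR adjusted p = 0.000735). Prmt6, which places a repressive mark on H3R2, averaged 42.8 ± 0.877 CPM in knockout and 34.6 ± 0.359 CPM in sgNeg2 libraries (log2 0.29 ± 0.05). Prmt1 averaged 229 ± 5.08 CPM in knockout and 195 ± 5.31 CPM in sgNeg2 libraries (log2 0.21 ± 0.04), and Prmt5 129 ± 2.51 CPM in knockout and 113 ± 4.69 CPM in sgNeg2 libraries (SD, n = 4 and 2; log2 0.17 ± 0.04). Each knockout library was above each control in these 4 genes, for Prmt8 and Prmt6 as a condition of being named. Kdm8 (0.49 ± 0.16), Nsd1 (0.34 ± 0.11), Kdm5a (0.22 ± 0.06), Kdm3a (0.21 ± 0.06), Setd2 (0.19 ± 0.06), Kdm1a (0.11 ± 0.04) and Setdb1 (0.11 ± 0.04) also rose, and H3K4 erasers rose in 3 of 6 cases.

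The falls in LLC were led by Kdm6b, with 41.5, 41.5, 42.0 and 43.2 CPM in knockout libraries, against 51.3 and 50.7 CPM in sgNeg2 libraries (log2 -0.30 ± 0.05, edgeR adjusted p = 6.05e-05). Ezh1 averaged 72.9 ± 1.58 CPM in knockout and 84.6 ± 2.00 CPM in sgNeg2 libraries (log2 -0.24 ± 0.04), and Kdm4a 98.6 ± 2.36 CPM in knockout and 113 ± 2.51 CPM in sgNeg2 libraries (log2 -0.22 ± 0.04). Setd1a (-0.11 ± 0.04) and Ehmt2 (-0.11 ± 0.04) were the other falls. Kdm6a (-0.18), Kmt2a (-0.10), Whsc1 (-0.07), Setd8 (-0.04), Kdm5b (-0.03), Ezh2 (-0.03), Kmt2d (-0.02) and Suv39h1 (0.07) were not called. Without sgNeg2 replicate 1 the LLC count was 8, with 3 higher and 5 lower, so that falls then outnumbered rises. The calls of Setdb1 (0.07), Ehmt2 (-0.10), Setd1a (-0.13), Kdm1a (0.11), Kdm3a (0.18), Kdm5a (0.12), Kdm8 (0.37), Nsd1 (0.33), Prmt5 (0.13) and Setd2 (0.13) were then lost, and Kmt2a was called (-0.24). Without sgNeg2 replicate 2 those of Ehmt2 (-0.12), Setd1a (-0.08), Kdm1a (0.10) and Nsd1 (0.35) were lost. Leaving out sgRNA#1 replicate 1 ended the calls of Setdb1 (0.11), Ehmt2 (-0.10), Setd1a (-0.11) and Kdm1a (0.10), sgRNA#1 replicate 2 those of Setdb1 (0.10), Ehmt2 (-0.09), Setd1a (-0.10) and Kdm8 (0.42), and sgRNA#2 replicate 2 those of Setdb1 (0.11) and Setd1a (-0.10). Prmt8, Prmt6, Prmt1, Kdm6b, Ezh1 and Kdm4a were called in all 6 of these fits.

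**Figure D4:**
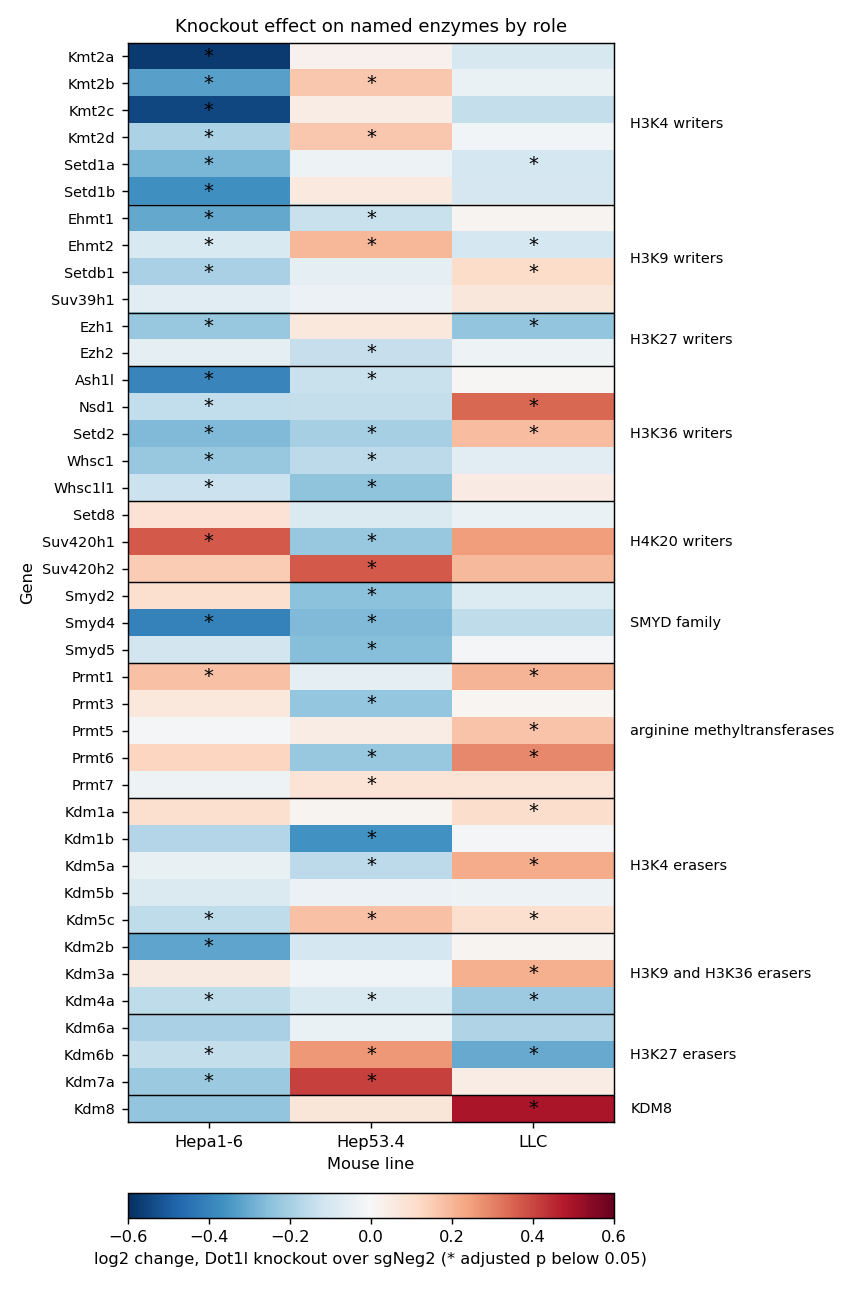
Log2 change of named enzymes (rows, by role) on Dot1l knockout over sgNeg2 in Hepa1-6, Hep53.4 and LLC (columns), on a colour scale from -0.6 (blue) to 0.6 (red), with an asterisk for an adjusted p below 0.05. H3K4 writers are blue in Hepa1-6 (Kmt2a -0.58), where Hep53.4 has Kmt2a at 0.02 and LLC at -0.10; Smyd1 and Prmt8 are left out.

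The lines were compared by testing the difference of the knockout effect in a joint fit of all 18 mouse libraries. Between Hepa1-6 and Hep53.4, 22 of 59 enzymes differed, 17 lower and 5 higher in Hepa1-6, against 24.7% of all genes (14.5% lower, 10.2% higher). Between Hepa1-6 and LLC 26 differed, each lower in Hepa1-6, against 24.6% (15.3% lower, 9.28% higher), and at an unadjusted p below 0.05 edgeR had 33 lower and 2 higher, while DESeq2 called 24 lower and 2 higher. Between Hep53.4 and LLC 18 differed, 14 lower and 4 higher in Hep53.4, against 29.2% (15.8% lower, 13.4% higher). These 3 comparisons share the libraries of each line.

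Without LLC sgNeg2 replicate 1, the count between Hepa1-6 and LLC was 13, of which 12 were lower and 1 higher in Hepa1-6. Of 8 H3K4 writers, 6 had a lower effect in Hepa1-6 than in Hep53.4 (median difference -0.40) and 8 a lower effect than in LLC (median -0.27), among them Kmt2d (-0.21), whose call was lost without any 1 of 5 libraries (-0.18 to -0.21). For Kmt2a the difference was -0.61 ± 0.08 from Hep53.4 (edgeR adjusted p = 1.93e-07) and -0.51 ± 0.08 from LLC (edgeR adjusted p = 4.31e-06). Kmt2a had 118, 122, 117 and 118 CPM in Hep53.4 knockout libraries, against 118 and 115 CPM in Hep53.4 sgNeg2 libraries, and 99.2, 98.8, 92.1 and 93.1 CPM in LLC knockout libraries, against 90.3 and 111 CPM in LLC sgNeg2 libraries, so the knockout libraries overlapped their controls in both. For Kmt2c the differences were -0.60 ± 0.11 and -0.44 ± 0.11, the second of which was lost without LLC sgNeg2 replicate 1 (-0.30). Kmt2b differed from Hep53.4 by -0.50 ± 0.07, having fallen in Hepa1-6 and risen in Hep53.4, and so did Kdm7a (-0.64 ± 0.09), Ehmt2 (-0.30 ± 0.05), Kdm5c (-0.34 ± 0.05), Kmt2d (-0.36 ± 0.07) and Kdm6b (-0.41 ± 0.08). Suv420h1 went the other way (0.58 ± 0.11). Among H3K36 writers, Nsd1 (-0.52 ± 0.10), Setd2 (-0.48 ± 0.09) and Ash1l (-0.44 ± 0.09) had a lower effect in Hepa1-6 than in LLC, and Nsd1 (-0.51 ± 0.11) and Setd2 (-0.41 ± 0.09) also in Hep53.4 than in LLC. Kdm6b differed between Hep53.4 and LLC by 0.54 ± 0.08 (edgeR adjusted p = 5.79e-06), Ehmt2 by 0.28 ± 0.05, Prmt6 by -0.54 ± 0.10 and Prmt1 by -0.29 ± 0.06.

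Few enzymes moved alike in all lines. Kdm4a was the 1 enzyme called lower in all 3 mouse lines, and none was called higher in all 3; without single libraries its call was lost in Hepa1-6 (sgNeg2 replicate 1, -0.13) and Hep53.4 (5 of 6 libraries, -0.06 to -0.12). Hepa1-6 and Hep53.4 shared 10 falls, which were 35.7% of the 28 in Hepa1-6 and 55.6% of the 18 in Hep53.4, and Setd2, Whsc1, Whsc1l1 and Ash1l of the H3K36 writers were among them. In 7 enzymes both lines were called in opposite directions. All 5 falls of LLC were also falls of Hepa1-6 (17.9% of its 28). Of the 27 EPZ-5676 falls in HuH-7, 15 (55.6%) were falls of the same gene in Hepa1-6 and 11 (40.7%) in Hep53.4, and 0 in LLC. Of the same 27, 0 were called higher in Hepa1-6, 2 in Hep53.4 (Kdm5c and Prmt7) and 7 in LLC. Over all genes, 18.3%, 19.7% and 17.5% were called lower in these lines. Among the enzymes tested, 28 of 56 were lower in Hepa1-6, 18 of 55 in Hep53.4 and 5 of 58 in LLC. The shares of the EPZ-5676 falls in Hepa1-6 and Hep53.4 were not far above these. In the same order of lines, 14.5%, 19.4% and 16% of all genes were called higher. Of the enzymes tested, 3 of 56, 8 of 55 and 12 of 58 were called higher. The 7 of 27 called higher in LLC (25.9%) were not far above the share there. Whether any of these overlaps exceeds chance was not tested.

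The mouse lines also differed before editing. Between Hepa1-6 and Hep53.4 sgNeg2 libraries 44 of 59 enzymes differed, 18 higher and 26 lower in Hepa1-6, against 76.2% of all genes (38.2% higher, 38% lower). Smyd2, a lysine methyltransferase that also acts on p53, had 139 and 138 CPM in Hepa1-6, against 17.6 and 18.1 CPM in Hep53.4 (log2 2.96 ± 0.06, edgeR adjusted p = 3.47e-30). Nsd1 had 84.2 and 88.6 CPM in Hepa1-6, against 20.9 and 22.4 CPM in Hep53.4 (log2 1.99 ± 0.07, edgeR adjusted p = 9.17e-23). Ezh2 had 40.2 and 41.0 CPM in Hepa1-6, against 169 and 171 CPM in Hep53.4 (log2 -2.07 ± 0.05, edgeR adjusted p = 7.14e-29). In these 3 genes both libraries of a line were close together and the lines far apart. Setd4 (2.33 ± 0.34), Smyd4 (1.62 ± 0.10), Kmt2d (1.18 ± 0.06), Suv420h2 (1.16 ± 0.10), Suv39h1 (0.79 ± 0.05), Setd8 (0.78 ± 0.05) and Kdm6b (0.45 ± 0.07) were also higher in Hepa1-6. Kmt2e (-1.40 ± 0.07), Prmt3 (-1.33 ± 0.09), Suv420h1 (-1.12 ± 0.09), Prmt7 (-0.96 ± 0.05), Ash1l (-0.83 ± 0.07), Setd3 (-0.80 ± 0.05), Prmt1 (-0.71 ± 0.05), Whsc1 (-0.59 ± 0.05), Kdm1a (-0.56 ± 0.04), Setd2 (-0.47 ± 0.07) and Kmt2a (-0.39 ± 0.06) were lower in Hepa1-6. Smaller differences were lost without 1 library. Without Hepa1-6 sgNeg2 replicate 1 the calls of Setdb1 (-0.19, then -0.14), Kdm5b (-0.17, then -0.13) and Ehmt2 (0.12, then 0.08) were lost, without Hepa1-6 sgNeg2 replicate 2 that of Ezh1 (0.14, then 0.10), without Hep53.4 sgNeg2 replicate 1 those of Ehmt2 (0.09) and Ezh1 (0.14), and without Hep53.4 sgNeg2 replicate 2 those of Kdm4a (-0.16, then -0.13) and Ezh1 (0.13). Kdm6a (-0.20) and Prmt5 (-0.08) were not called.

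LLC stood apart from both liver lines in several of these enzymes. In all 49 of 59 differed from the mean of Hepa1-6 and Hep53.4, 27 higher and 22 lower in LLC, against 79.3% of all genes (41% higher, 38.3% lower). Kdm6a, the X-linked H3K27 demethylase UTX, had 2.37 and 2.63 CPM in LLC, against 26.9 and 29.4 CPM in Hepa1-6 and 31.1 and 33.3 CPM in Hep53.4 (log2 -3.58 ± 0.11, edgeR adjusted p = 1.20e-25). Nsd1 had 5.34 and 5.46 CPM in LLC (log2 -3.00 ± 0.08, edgeR adjusted p = 3.91e-27), below both libraries of each liver line. Prmt8 had 3.73 and 4.51 CPM in LLC and 0 counts in the 4 liver sgNeg2 libraries, so it was at least 294-fold higher in LLC against a floor of 3 counts over those libraries. It also had 0 counts in all 12 liver libraries. All 3 H3K27 erasers were lower in LLC, Kdm6b by -0.47 ± 0.06 on the log2 scale, and 5 of 6 H3K9 writers were higher with 0 lower. Setdb1 had 83.0 and 88.7 CPM in LLC, against 33.2 and 35.4 CPM in Hepa1-6 and 39.6 and 38.4 CPM in Hep53.4 (log2 1.23 ± 0.05, edgeR adjusted p = 1.51e-21). Suv39h2 (1.15 ± 0.18), Suv39h1 (0.74 ± 0.04) and Ehmt2 (0.23 ± 0.03) were further H3K9 writers higher in LLC. Prmt6 (1.30 ± 0.07), Whsc1 (1.04 ± 0.04), Setd7 (0.74 ± 0.05), Prmt1 (0.64 ± 0.04), Ezh1 (0.55 ± 0.05), Setd8 (0.53 ± 0.04), Prmt5 (0.30 ± 0.04), Setd2 (0.29 ± 0.06), Kdm1a (0.23 ± 0.04) and Kdm4a (0.18 ± 0.04) were also higher in LLC. Suv420h1 (-1.51 ± 0.09), Kdm5a (-1.46 ± 0.06), Kdm5b (-1.39 ± 0.05), Kdm3a (-1.34 ± 0.05), Whsc1l1 (-1.12 ± 0.05), Prmt2 (-1.10 ± 0.08) and Kmt2d (-0.68 ± 0.05) were lower. Ezh2 (0.00) was not called, since LLC with 82.0 and 84.6 CPM lay between both liver lines, and Kmt2a (-0.01) was not called but was called without LLC sgNeg2 replicate 1 (0.13) and, in the other direction, without replicate 2 (-0.17).

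**Figure D5:**
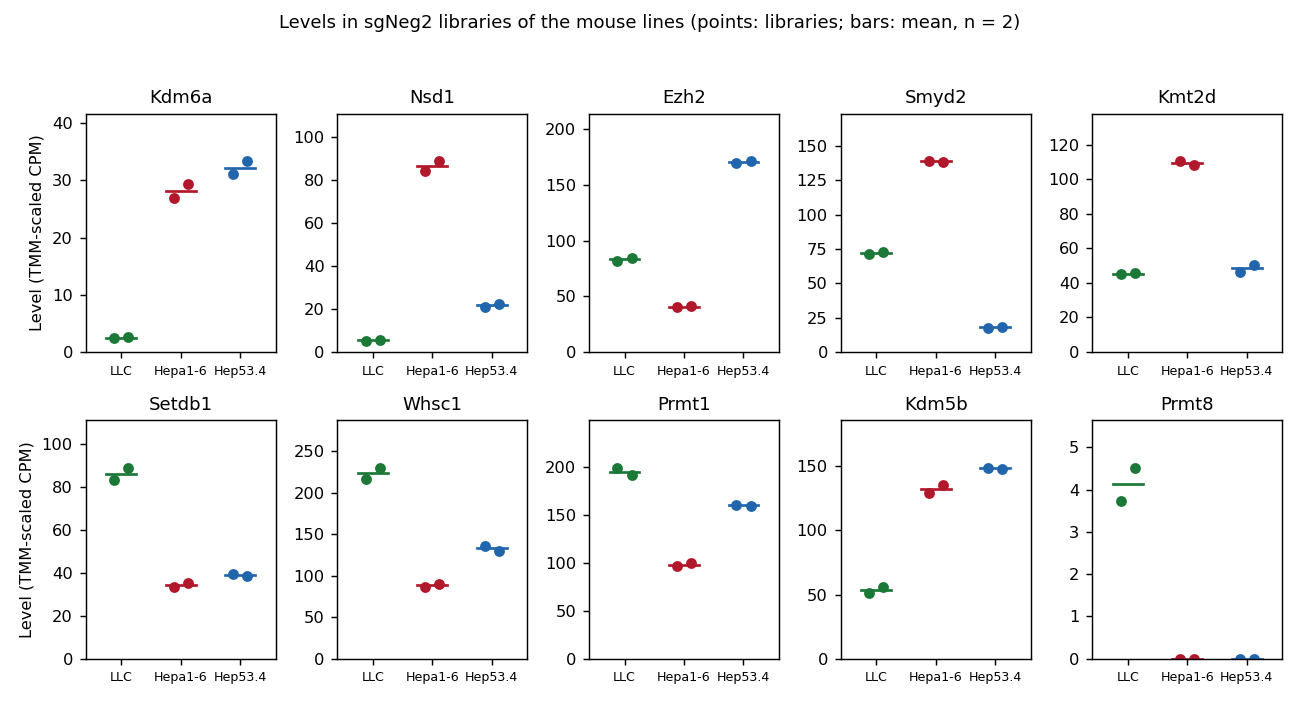
Level in TMM-scaled CPM (y axis, from 0) of 10 enzymes in sgNeg2 libraries of LLC, Hepa1-6 and Hep53.4, with points for libraries and bars for the mean (n = 2). Kdm6a lies at 2.37 and 2.63 CPM in LLC and between 26.9 and 33.3 CPM in the liver lines, and Prmt8 is at 0 in both liver lines.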

How the data were processed

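RNA was sequenced in 36 libraries of 17 groups. The deposited files hold raw counts per gene symbol. Reads were handled with Trim Galore, HISAT2 2.2.1 and SAMtools 1.9 on hg38 and mm10, and DESeq2 1.36.0 is named, per the submitters' processing notes. No source used here names the counting program, annotation or strand setting. The DMSO and EPZ-5676 files list only genes with at least 1 count in every library. Lines with a blank symbol were left out (1721 in Hepa1-6 sgNeg2 files and 1 in Hep53.4 files).

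Counts were tested with the quasi-likelihood F test of edgeR 4.0.16 (R 4.3.3) with TMM scaling, filterByExpr (minimum count 10, minimum total 15) and robust fitting. Both guides were pooled as knockout. P-values were adjusted by the Benjamini-Hochberg method over all genes of a comparison, at a threshold of 0.05. HuH-7 guide libraries shared 1 fit, each mouse line had its own fit, and differences between lines came from a joint fit. Levels are TMM-scaled CPM computed from the deposited counts. Gene spans and transcript GC content are from GENCODE 29, and promoter windows are from RefSeq. Alternatives were RLE scaling, DESeq2 1.42.0, no filter, the replicate number as a block, guides apart, fits of fewer or more libraries, DMSO as control of IFN, each library left out and, added after the data were seen, a GC trend offset. The pipeline was tested on simulated data.

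The members and lists were chosen with earlier results of these data known. Named in each comparison are 18 panel enzymes and, of the called enzymes with at least 1 CPM and no overlap between groups, the 8 largest rises and 8 largest falls. Lack of overlap is therefore no separate support for enzymes named outside the panel. No sample was left out of the fits, and no 2 libraries agreed within sampling noise. Counting intervals and floors cover counting error only.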

Additional observations from a re-analysis of the deposited data

Results flagged for a closer look

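In 5 of 121 groups of 4 knockout libraries, 1 library stood apart from the other 3 by Dixon's criterion, where chance alone flags about 1 in 20 groups. NSD1 was at 145 CPM in HuH-7 sgRNA#2 replicate 2 without IFN, against 130 to 133 CPM in the others, and PRMT5 in the same library was at 63.7 CPM, against 70.4 to 71.4 CPM. Ash1l was at 38.7 CPM in Hepa1-6 sgRNA#2 replicate 2, against 41.1 to 41.6 CPM, and Setd1b at 21.3 CPM in Hepa1-6 sgRNA#2 replicate 1, against 25.5 to 26.2 CPM. Kdm5b was at 138 CPM in Hep53.4 sgRNA#2 replicate 1, against 146 to 147 CPM.

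The knockout effect differed between settings by an interaction test in several named enzymes (edgeR adjusted p below the threshold). In HuH-7, the effect on EHMT2 was higher by 3.36 on the log2 scale with IFN than without, between libraries that also differ in depth and make-up. Its level differed between controls without IFN, at 6.37 and 8.39 CPM in sgNeg2 and 0.743 to 1.60 CPM in DMSO libraries.

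Between Hepa1-6 and Hep53.4, the effect in Hepa1-6 was lower for Kdm7a (-0.64), Kmt2a (-0.61), Kmt2c (-0.60), Kmt2b (-0.50), Setd1b (-0.44), Kdm6b (-0.41), Kmt2d (-0.36), Kdm5c (-0.34), Ezh1 (-0.30) and Ehmt2 (-0.30). It was higher for Suv420h1 (0.58), Prmt6 (0.35), Smyd2 (0.33), Prmt3 (0.28) and Prmt1 (0.23). The call of Prmt6 was lost without Hepa1-6 sgNeg2 replicate 1 (0.32), and that of Prmt3 without any 1 of 8 libraries (0.24 to 0.33).

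Between Hepa1-6 and LLC, the effect in Hepa1-6 was lower for Nsd1 (-0.52), Kmt2a (-0.51), Setd2 (-0.48), Kmt2c (-0.44), Ash1l (-0.44), Kdm3b (-0.37), Kdm2b (-0.36), Ehmt1 (-0.36), Setdb1 (-0.34), Prmt5 (-0.21), Kmt2d (-0.21), Whsc1 (-0.19) and Suv39h1 (-0.17). The calls of Kmt2c (-0.30) and Prmt5 (-0.17) were lost without LLC sgNeg2 replicate 1, and that of Kdm2b (-0.27) without Hepa1-6 sgNeg2 replicate 2. That of Whsc1 was lost without either of these libraries (both -0.16), that of Kmt2d without any 1 of 5 libraries (-0.18 to -0.21) and that of Suv39h1 without any 1 of 6 (-0.12 to -0.17).

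Between Hep53.4 and LLC, the effect in Hep53.4 was lower for Prmt6 (-0.54), Nsd1 (-0.51), Suv420h1 (-0.50), Setd2 (-0.41), Kdm5a (-0.40), Kdm1b (-0.38), Prmt2 (-0.33), Whsc1l1 (-0.31) and Prmt1 (-0.29). It was higher for Kdm6b (0.54), Kdm7a (0.35), Ehmt2 (0.28) and Ezh1 (0.28). The call of Kdm7a was lost without LLC sgNeg2 replicate 2 (0.25), that of Prmt2 without Hep53.4 sgNeg2 replicate 2 (-0.32) or LLC sgNeg2 replicate 1 (-0.25), and that of Kdm1b without any 1 of 7 libraries (-0.35 to -0.41).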

How the results depend on the processing

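Counts of called enzymes moved most in HuH-7 knockout. Without IFN the count of 2 became 5 with RLE scaling, 8 with DESeq2, 14 with guides as groups, 11 with sgRNA#1 alone, 13 with sgRNA#2 alone, 5 in a 6-library fit and 19 with a GC trend offset, added after the data were seen. With IFN the count of 5 became 15 with guides as groups, 17 with sgRNA#1 alone, 24 with sgRNA#2 alone, 0 in a 6-library fit (edgeR had 6 at an unadjusted p below 0.05, and DESeq2 called 0) and 21 with the GC trend offset. The interaction count of 1 became 2 with DESeq2, 4 with guides as groups and 3 with the GC trend offset. The cause was not tested. The share of all genes called was not counted under these alternatives, so these counts do not show whether the enzymes moved more than other genes. The replicate numbers do not pair the libraries (correlation of same-numbered deviations -0.061 to 0.062). With the replicate number as a block the counts were 3 for knockout with IFN, 2 without IFN, 1 for the interaction, 42 for IFN and 27 for EPZ-5676 (1 higher, EHMT2, and 26 lower, without KDM6A), whose libraries each correlated best with their own number.

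With DMSO as the control of IFN, the direction reversed for EHMT2 (1.13), KDM4A (0.22), KDM6B (0.67), KMT2D (0.047), PRMT3 (-0.014) and WHSC1 (-0.074), and in LLC against the liver lines Kmt2a ran from -0.17 to 0.13 with single libraries left out, above 0 without LLC sgNeg2 replicate 1.

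With single libraries left out, counts ran from 1 to 2 for knockout without IFN, 0 to 7 with IFN, 1 to 2 for the interaction, 39 to 40 for IFN, 20 to 24 for EPZ-5676, 19 to 30 for Hepa1-6, 13 to 24 for Hep53.4 and 8 to 20 for LLC. For differences between lines they ran from 18 to 22 (Hepa1-6 and Hep53.4), 13 to 26 (Hepa1-6 and LLC) and 13 to 21 (Hep53.4 and LLC), and for levels from 38 to 42 (Hepa1-6 and Hep53.4) and 47 to 50 (LLC and liver lines). A control arm left with 1 library is assumed to vary like the other groups. Over all alternatives for single named enzymes, 4106 values kept direction and side of the threshold, 89 gained a call, 203 lost one and 7 reversed.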
